A study of Danio rerio with 4 samples.

Results

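Anterior neural ectoderm is the sheet of dorsal, animal-side cells that will become forebrain and midbrain, and it was sought here in zebrafish embryos at the shield stage, the onset of gastrulation. Its cells were chosen by measured values: a cell was kept with at least 3000 unique molecular identifiers (UMIs, each standing for 1 captured mRNA molecule) and a value above 0.5 for at least 3 of *hesx1*, *lhx5*, *otx2*, *otx1b* and *kazald2*. Cells with more than 0.5 of *gsc_2*, *frzb*, *sox32*, *krt92*, *ta* or *foxi1*, genes of prechordal plate, endoderm, enveloping layer, margin and ventral ectoderm, were left out. The rule kept 670 of 14455 cells, and they are called gated cells below. M*rbm24a* embryos came from mothers that carried *cas9* under the oocyte promoter *zpc* together with a transgene for sgRNAs against *rbm24a*, so that the egg's supply of the RNA-binding protein Rbm24a was lost. These mothers also carried an RFP fusion at *rbm24a*, and the sgRNA transgene held a blue fluorescent protein (BFP) marker. Per the paper, editing was not complete over all embryos with BFP, and M*rbm24a* embryos were picked as those that lacked the Rbm24a-RFP signal. The controls are titled sibling embryos and given the genotype wild type. Each genotype had 2 single-cell libraries, made from pooled whole embryos, and nothing in the labels says that the 2 came from separate clutches. The p-values then measure only the spread between these libraries, which may be technical.

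In the vertebrate ectoderm, tissue that is shielded from bone morphogenetic protein (BMP) by antagonists from the dorsal organizer takes a neural fate, and tissue that is further shielded from Wnt, fibroblast growth factor (FGF) and retinoic acid stays anterior. Otx factors mark the part ahead of the midbrain-hindbrain boundary, Hesx1 is a homeodomain repressor needed for the forebrain, and Lhx5 promotes zebrafish forebrain identity through Wnt antagonists. Many genes of definitive forebrain regions are switched on only later in gastrulation.

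The 4 libraries held 3402 and 3952 cells from M*rbm24a* embryos, against 3534 and 3567 from siblings, with 40176506 to 61973441 UMIs in all. Of all cells, 25.0% and 21.1% in M*rbm24a* libraries, against 6.20% and 34.0% in sibling libraries, lay under 3000 UMIs and could not be gated. Gated cells had medians of 17075 and 13703 UMIs in M*rbm24a* libraries, against 17477 and 16843 in sibling libraries, so that their depth overlapped between genotypes. Their summed UMIs came to 1393223 and 2214548, against 4198274 and 3332205. Cell barcodes were shared by libraries in 16 cases, and 2 gated cells were among them. The targeted gene cannot be used to check the genotype, since counting at the 3′ end does not show edits and *rbm24a* had at most 1.75 UMIs in the gated cells of any library. In all remaining cells, the germ cell gene *nanos3* stood at 5.02 and 6.06 CPM (UMIs of a gene scaled to a fixed total for the cells summed) in M*rbm24a* libraries, against 92.2 and 97.2 CPM in sibling libraries, and the genotypes do not overlap.

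Gated cells mostly combined *otx1b* and *kazald2* with 1 to 3 of the sparser markers. *otx1b* passed 0.5 in 92.5 to 96.1% of gated cells per library and *kazald2* in 90.2 to 96.2%, whereas *hesx1* did so in 65.9 to 73.2%, *otx2* in 49.0 to 58.3% and *lhx5* in 47.7 to 55.5%. The most common combination, *hesx1* with *otx1b* and *kazald2*, was found in 130 cells, and all 5 markers were found in 96. Both common markers were also widespread outside the gate: among remaining cells of at least 3000 UMIs, 33.5 to 46.2% had *otx1b* and 54.7 to 59.3% had *kazald2*. The sparser markers were rarer there, with *hesx1* in 13.2 to 14.7% of such cells. As these values define the gate, they describe it and test nothing.

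The edge of the gate lies between cells with 2 and cells with 3 markers. Of the gated cells 342 had exactly 3 markers, 232 had 4 and 96 had 5, while 492 further cells met every other condition with exactly 2 markers and stayed outside. Cells with 3 markers had a median of 15500 UMIs and those with exactly 2 had 14518. The share of gated cells that had only 3 markers was 54.9 and 52.9% in M*rbm24a* libraries, against 47.7 and 52.0% in sibling libraries.

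Gated cells made up a smaller share of M*rbm24a* libraries than of sibling libraries. The 82 gated cells of M*rbm24a* 1 were 2.41% of its cells (95% Clopper-Pearson interval 1.92 to 2.98%), and the 153 of M*rbm24a* 2 were 3.87% (3.29 to 4.52%). The 235 gated cells of sibling 1 were 6.65% (5.85 to 7.52%), and the 200 of sibling 2 were 5.61% (4.87 to 6.41%). These intervals cover counting error only, and both M*rbm24a* shares lay below both sibling shares. The mean share was 3.14 ± 1.03% in M*rbm24a* libraries and 6.13 ± 0.737% in sibling libraries (SD, n = 2 each), a difference of -2.99 percentage points. A two-sided exact permutation test gave p = 0.33, the smallest p that 2 libraries against 2 allow, so a threshold of 0.05 could not be reached.

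The difference in shares was smaller without the exclusion genes. Then cells of at least 3000 UMIs with 3 or more markers were 15.05 and 15.8% of M*rbm24a* libraries, against 21.4 and 13.6% of sibling libraries, and the genotypes overlapped (two-sided exact permutation p = 1 with n = 2 each). As a share of cells of at least 3000 UMIs they were 20.08 and 20.04% in M*rbm24a* libraries, against 22.8 and 20.6% in sibling libraries (exact permutation p = 0.33). The exclusion genes then kept 16.0 and 24.5% of these cells in M*rbm24a* libraries, against 31.1 and 41.2% in sibling libraries. The endoderm gene *sox32* passed 0.5 in 64.1 and 50.7% of the 3-marker cells of M*rbm24a* libraries, against 38.9 and 27.0% of those of sibling libraries. *frzb*, an antagonist of Wnt made in the prechordal plate, followed the same order, with 54.3 and 42.2% against 31.8 and 19.96%. *ta*, the Brachyury factor of the margin, did so as well, with 66.6 and 58.1% against 49.3 and 36.6%. Among all cells of at least 3000 UMIs, *sox32* also passed 0.5 more often in M*rbm24a* libraries, in 48.9 and 30.7% of cells against 27.2 and 24.0%. The shares of 3-marker cells above are unthinned. Those cells numbered 512 and 625 in M*rbm24a* libraries and held 15942058 and 21240089 UMIs. In sibling libraries 755 and 486 cells held 20261400 and 10814145 UMIs, so depth per cell was higher in M*rbm24a* libraries. Neither the part of depth nor what set these levels was tested. With each cell thinned to 3000 UMIs before gating, the gated share was 0.864 and 1.25% in M*rbm24a* libraries, against 1.96 and 1.91% in sibling libraries.

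**Figure D1:**
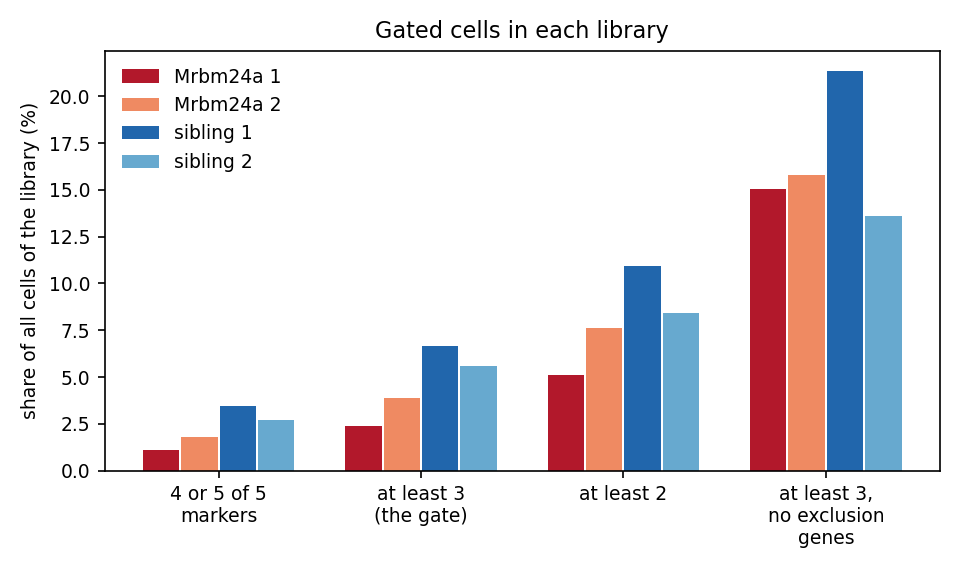
Bars give the share of all cells of a library (%) that met 4 versions of the rule, with 1 bar per library. M*rbm24a* bars are lower than sibling bars in the 3 versions that use the exclusion genes, while without those genes the 4 libraries overlap at 13.6 to 21.4%.

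Gated cells were then set against the remaining cells of their own library. For each gene the UMIs of a set of cells were summed per library and scaled to CPM, and the ratio was taken on the scale of log2(CPM + 5), which understates the change of genes with low levels. Among 4993 genes that averaged at least 20 CPM in either set, gate genes left out, 12 were at least 2-fold higher in gated cells in each of the 4 libraries (0.24% of genes) and 203 were at least 2-fold lower (4.07%). The cells were picked by their expression, so these ratios are a description with no test. The lower genes follow partly from the exclusion of whole cell types. A gene that averaged under 20 CPM in gated cells counted only through remaining cells, so it could not come out higher. Likewise a gene under 20 CPM in remaining cells counted only through gated cells and could not come out lower.

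The genes raised in gated cells joined enzymes of vitamin A metabolism, a Wnt antagonist and neural regulators. *cyp26a1*, which breaks down retinoic acid, had 153, 176, 211 and 210 CPM in gated cells of M*rbm24a* 1, M*rbm24a* 2, sibling 1 and sibling 2, against 47.8, 47.3, 58.2 and 55.4 CPM in remaining cells. *lratb*, a lecithin retinol acyltransferase that stores retinol as an ester, had 82.4 to 135 CPM in gated cells of the 4 libraries, against 33.3 to 38.0 CPM in remaining cells. No gated sum of either gene overlapped a remaining sum, with mean log2 ratios of 1.74 for *cyp26a1* and 1.42 for *lratb*. *sfrp1a*, a secreted Wnt antagonist, had 233, 233, 264 and 315 CPM in gated cells, against 106, 99.4, 116 and 139 CPM in remaining cells. Its log2 ratio was the steadiest of the 12 genes across libraries, at 1.09 to 1.19.

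*otx1a*, the one *otx* gene with a level that the rule did not use, was also among the 12. It had 260, 241, 244 and 200 CPM in gated cells, against 105, 99.8, 81.7 and 68.9 CPM in remaining cells of the same 4 libraries. *her3*, a Hairy-type repressor of neurogenesis in zebrafish, had 70.1, 80.5, 156 and 176 CPM in gated cells, against 24.7, 23.0, 48.8 and 51.0 CPM in remaining cells. Unlike *otx1a* it was low in both M*rbm24a* libraries in either set of cells. *nova1*, which encodes a splicing regulator of neurons, had the highest gated level of the 12 at 284 ± 15.2 CPM, against 115 ± 4.71 CPM in remaining cells (SD, n = 4 libraries).

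*st8sia1*, the sialyltransferase of disialogangliosides, led the 12 by the smallest ratio over the libraries, with a log2 ratio of 1.62 to 1.75 and 60.9 ± 3.86 CPM in gated cells against 15.9 ± 1.74 CPM in remaining cells (SD, n = 4). *auts2b* (log2 ratio 1.40 to 1.74), *plxdc2* (1.25 to 1.59), the secreted kinase gene *pkdcca_1* (1.24 to 1.44), the E-protein gene *tcf12* (1.05 to 1.32) and the semaphorin gene *sema4c* (1.02 to 1.38) completed the 12. *st8sia1* and all of these averaged under 20 CPM in remaining cells. They counted only through gated cells and could not come out lower, so the count of 12 is partly set by the minimum level. The suffix in *pkdcca_1* marks 1 of several entries with the same symbol in the files. *pkdcca_1* is not particular to gated cells, at 21.8 CPM there against 57.4 CPM in cells with *gsc_2* and *frzb*, a set described further on. *sema4c* was the gene just inside the rule. *dbx1a* and *robo3*, whose lowest log2 ratio rounds to 1.00 but lies under it, were just outside.

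**Figure D2:**
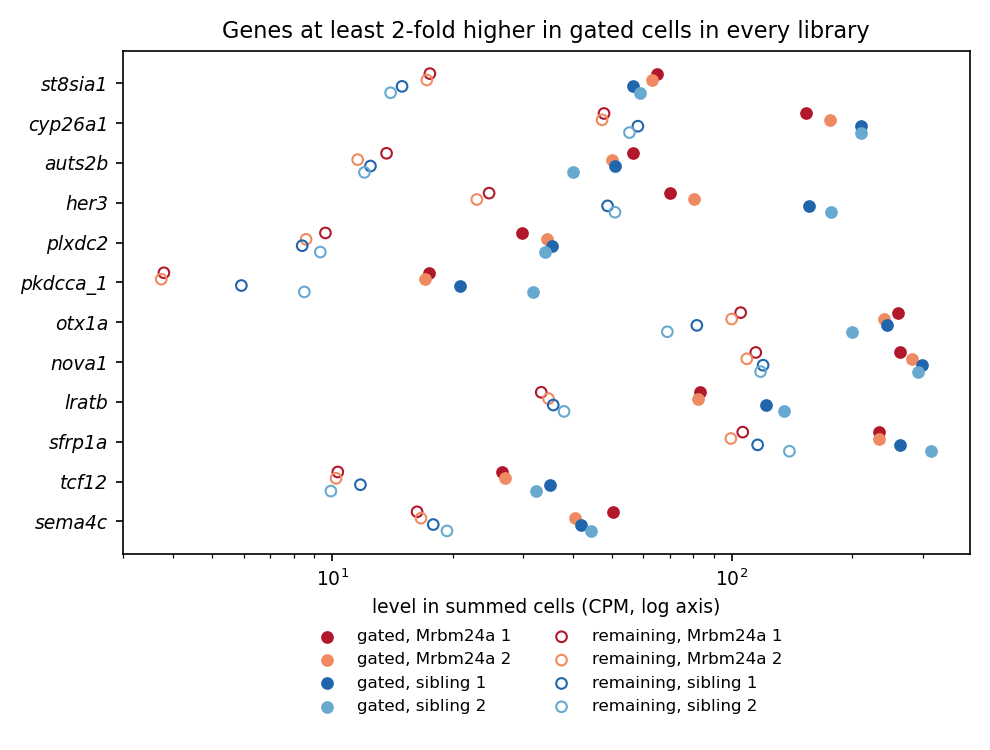
Level (CPM on a log axis) of the 12 genes that were at least 2-fold higher in gated cells in each library, with filled points for gated cells and open points for remaining cells of the same library. Filled and open points of a gene do not overlap, and *cyp26a1* has 153 to 211 CPM in gated cells against 47.3 to 58.2 CPM in remaining cells.

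Shares of cells with the transcript showed the same genes to be raised across many cells. After thinning each cell to 3000 UMIs, *cyp26a1* was found in 36.5% of gated cells (mean of 4 libraries, 29.3 to 40.0%), against 13.5% of remaining cells of that depth and 8.84% of the prechordal-type cells with *gsc_2* and *frzb*, a set of 107 cells described further on. Unthinned, the shares were 79.7%, 41.8% and 17.4%. Thinned *nova1* was found in 57.3% of gated cells, against 28.4% of remaining cells and 15.8% of *gsc_2* and *frzb* cells, and unthinned in 97.2%, 67.2% and 46.5%. *auts2b* was found in 12.7% of thinned gated cells, against 3.66% of thinned remaining cells, and unthinned in 49.8% and 16.6%. Each of these transcripts was thus found in a larger share of gated than of remaining cells, and also in some cells outside the gate.

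The label of anterior neural ectoderm was checked on forebrain and midbrain factors that the rule did not use. Of 25 such genes in the files, 6 reached the minimum level and 19 did not. Of the 6, *otx1a* passed the fold rule, which 0.24% of all genes passed upwards. The median log2 ratio of the 6 was 0.84, against a median of 0.04 over all genes. *tcf7l1a*, the Wnt-target repressor known from the *headless* mutant, had 391, 427, 413 and 354 CPM in gated cells, against 206, 201, 197 and 164 CPM in remaining cells, short of 2-fold in at least 1 library. Its paralog *tcf7l1b* lay at log2 ratios of 0.94 to 1.04. The midbrain and hindbrain border genes of the Iroquois family were closer to the remaining cells, with *irx1b* at 0.53 to 0.75 and *irx7* at 0.00 to 0.30.

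Regional forebrain factors were low, and only some of them were above their level in remaining cells. *six3b*, a homeobox gene of the forebrain and eye field, had 0.48 ± 0.36 CPM in gated cells against 8.99 ± 0.973 CPM in remaining cells (SD, n = 4). *six3a* averaged 0.06 CPM and the eye field gene *rx3* 0.11 CPM in gated cells. *fezf2*, a zinc finger factor of the forebrain, had 3.38 ± 1.64 CPM in gated cells, low but above the 0.48 CPM of remaining cells. *pax6b* had 9.71 ± 4.93 CPM in gated cells against 1.53 CPM in remaining cells. The genes of the rule chose the cells and cannot test the label, which beyond them rests on *otx1a*. That gene is not particular to gated cells, at 236 CPM there against 357 CPM in the prechordal-type cells with *gsc_2* and *frzb*. *fezf2* and *pax6b* were low but higher than in remaining cells, and *six3a*, *six3b* and *rx3* were at or near 0.

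Neural ectoderm genes in general were moderately higher. Of 14 SoxB1, *zic* and other early neural genes with a level, 10 had a log2 ratio above 0 in all 4 libraries and 3 below 0 in all 4. 1 of them, *her3*, passed the fold rule, which 0.24% of all genes passed upwards. *sox2*, which maintains neural progenitors, had 253, 242, 249 and 227 CPM in gated cells, against 132, 130, 147 and 141 CPM in remaining cells. *sox19a_1*, of the same SoxB1 group, had 475 ± 27.1 CPM in gated cells against 353 ± 17.2 CPM in remaining cells (SD, n = 4). *sox11b* and *gmnn* were slightly lower, and *zic2a* was lower most of all, at log2 ratios of -1.29 to -0.04.

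Genes of the posterior and the margin were low throughout. All 8 of these with a level passed the fold rule downwards, against 4.07% of all genes, with a median log2 ratio of -3.14. The rule itself left out cells with *ta*, which were 60.7 to 68.0% of remaining cells of at least 3000 UMIs. *cdx4*, a homeobox factor of the posterior body, had 13.7, 19.96, 21.8 and 18.9 CPM in gated cells, against 311, 314, 436 and 527 CPM in remaining cells. *tbx16*, a T-box factor of mesoderm progenitors, had 122, 120, 89.3 and 99.4 CPM, against 622, 580, 617 and 695 CPM. Not every mesodermal transcript was absent, since 108 CPM of *tbx16* remained on average. *msgn1* had 17.98 ± 5.29 CPM in gated cells against 304 ± 50.7 CPM in remaining cells, and *eve1*, a ventral and posterior homeobox gene, 5.63 ± 1.54 CPM against 131 ± 29.1 CPM (SD, n = 4). *cdx4*, *msgn1* and *eve1* averaged under 20 CPM in gated cells, so they counted only through remaining cells and could not come out higher.

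Among Wnt pathway genes, 7 of 11 with a level were lower by the rule and 1, *sfrp1a*, was higher, against 4.07% and 0.24% of all genes. The ligand gene *wnt5b* had 8.75 CPM in gated cells against 101 CPM in remaining cells, and the target genes *sp5a*, *lef1* and *notum1a* had 1.80, 2.40 and 1.90 CPM against 30.6, 46.3 and 24.4 CPM. The related target *sp5l* kept a substantial level, 159 CPM against 396 CPM. *axin2*, a target induced in most Wnt-responsive cells, differed little, with log2 ratios of -0.42 to -0.08. The receptor gene *fzd8a* was higher in all 4 libraries, at 0.60 to 0.84, whereas *fzd8b*, which marks the prechordal plate here, had 3.79 CPM against 76.1 CPM. *wnt5b*, *sp5a*, *lef1*, *notum1a* and *fzd8b* averaged under 20 CPM in gated cells. They counted only through remaining cells and could not come out higher, so the count of lower genes is partly set by the minimum level.

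In the BMP pathway 7 of 15 genes with a level were lower and none was higher by the rule, against 4.07% and 0.24% of all genes. The ligand *bmp4* had 11.1 ± 1.60 CPM in gated cells against 60.8 ± 15.5 CPM in remaining cells (SD, n = 4). Being under 20 CPM in gated cells, it could not come out higher. *ved*, a ventral homeobox repressor induced by BMP, had 164, 141, 130 and 172 CPM in gated cells, against 648, 703, 760 and 1123 CPM in remaining cells. Its relative *vox* differed less, at log2 ratios of -0.46 to 0.06, so these 2 ventral repressors did not go together. In M*rbm24a* libraries *vox* was lower in gated cells, at 167 and 182 CPM against 232 and 234 CPM. In sibling libraries it was at a similar level in both, at 319 and 419 CPM against 332 and 402 CPM. *id1*, a BMP target with a broad pattern, was slightly higher in gated cells of each library, at log2 ratios of 0.11 to 0.26. The antagonist gene *chd* (chordin) had 249 ± 42.6 CPM against 485 ± 24.5 CPM, and *admp*, a BMP-like ligand of the dorsal side, 450 ± 57.9 CPM against 296 ± 31.2 CPM.

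Retinoic acid, FGF, chemokine, Notch and adhesion genes were read in the same way. Over all genes 4.07% were lower and 0.24% were higher by the rule. Of 4 retinoic acid genes with a level, *cyp26a1* was higher and the retinaldehyde reductase gene *dhrs3b* was lower, at 6.59 CPM against 49.2 CPM. FGF ligands of the margin were low, *fgf8a* at 1.86 CPM against 48.4 CPM and *fgf24* at 1.79 CPM against 29.1 CPM, while the receptor genes *fgfr1a* (log2 ratio 0.60 to 0.70) and *fgfr4* (0.33 to 0.44) were higher in all 4 libraries. Of 6 chemokine and Apelin genes with a level 4 were lower, among them the ligand *cxcl12a* at 9.36 CPM against 162 CPM, and the receptors *cxcr4a* and *cxcr4b* differed little. *dhrs3b*, *fgf8a*, *fgf24* and *cxcl12a* averaged under 20 CPM in gated cells, so they could not come out higher. Of 11 Notch pathway genes with a level, *her1*, *her7*, *dld* and *notch2* were lower and none was higher. Of 7 adhesion genes with a level 3 passed the rule, *cdh6*, *pcdh8* and *pcdh10b*, all of them lower. *cdh1* (E-cadherin) was lower in all 4 libraries without passing it.

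None of 16 mitosis genes and none of 17 DNA replication genes with a level passed the fold rule, which 0.24% of all genes passed upwards and 4.07% downwards. Of the mitosis genes 10 were above 0 in all 4 libraries and 2 below (median log2 ratio 0.08), and of the replication genes 8 and 3 (median 0.09). *pou5f3*, an activator of the zygotic genome, had 1220 CPM in gated cells against 1232 CPM in remaining cells.

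Markers of the enveloping layer (EVL), the outer epithelium of the embryo, were among the lowest, and 14 of the 15 genes with the most negative ratios had at most 12.2 CPM in any gated sum. The keratin genes *krt4_1* and *krt97* reached at most 1.72 and 0.14 CPM in gated cells, against 179 to 426 CPM and 116 to 239 CPM in remaining cells. The remaining one was *cdx4*. Over 12 EVL markers other than *krt92*, the summed level in gated cells was 3.5 and 1.3 CPM in M*rbm24a* libraries, against 75.7 and 5.6 CPM in sibling libraries, and 10 of the 12 stayed under 5 CPM in every library. The high sum of sibling 1 came from *lye*, an EVL surface protein gene, at 54.3 CPM there and at 0.15 to 2.32 CPM in the other 3 libraries. In sibling 1, 115 of 235 gated cells had more than 0.5 of *lye* and the highest had 11.2, against at most 6 such cells in any other library. The EVL sums of the 3 compared sets of cells were highest in sibling 1 as well, at 68.3, 82.4 and 386 CPM. The part of leftover EVL RNA in these values was not tested.

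Levels moved with the number of gate markers in a cell. *cyp26a1* averaged 273 ± 32.7 CPM in cells with 5 markers, 203 ± 26.02 CPM with 4 and 151 ± 30.1 CPM with 3, against 86.2 ± 17.9 CPM in the cells with exactly 2 that stayed outside (SD, n = 4 libraries). *otx1a* gave 294, 261 and 202 CPM with 5, 4 and 3 markers, against 137 CPM with 2. Both genes were higher with each added marker in every library. *cdx4* gave 7.55, 14.5 and 24.9 CPM, against 55.4 CPM with 2 markers, and *tbx16* 68.9, 94.9 and 128 CPM, against 185 CPM with 2. *chd* had 145, 210 and 308 CPM, against 333 CPM with 2 markers, while *sox2* had 274 CPM with 5 markers against 212 CPM with 2 and *foxb1a* showed no order, at 71.5, 61.9, 74.8 and 70.1 CPM. The median UMIs of these cells were 17260, 17527, 15500 and 14518 for 5, 4, 3 and 2 markers, and the part of depth in these trends was not tested.

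**Figure D3:**
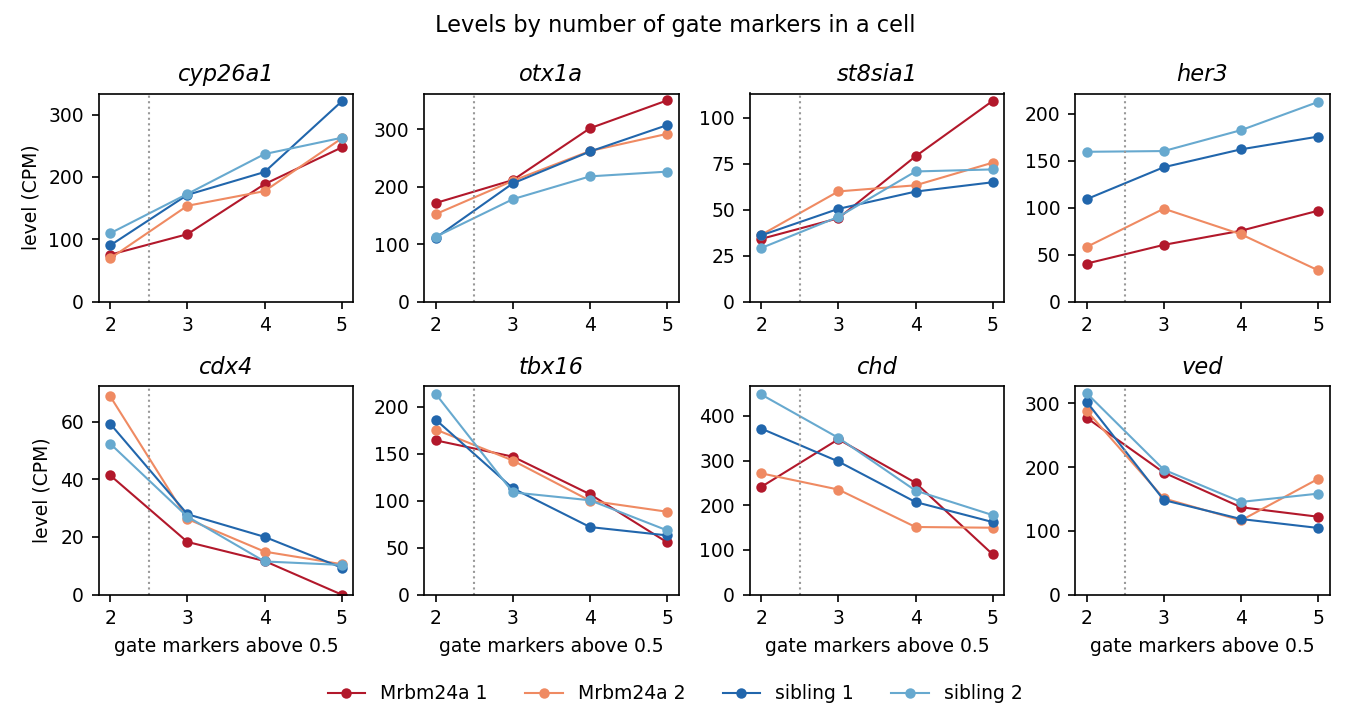
Level (CPM) of 8 genes in cells with 2, 3, 4 or 5 gate markers above 0.5, with 1 line per library. Cells left of the dotted line stayed outside the gate, and *cyp26a1* climbs to 273 CPM at 5 markers while *cdx4* declines to 7.55 CPM (means of 4 libraries).

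The most like cells were sought in 3 sets of ungated cells of at least 3000 UMIs. These were 356 cells with *foxb1a* and *her3*, genes of dorsal neural ectoderm, 487 cells with *foxi1* and *gata2a*, genes of ventral ectoderm, and 107 cells with *gsc_2* and *frzb*, genes of the prechordal plate. The first set met all exclusions of the gate. The second had to hold *foxi1* and met the other exclusions. The third had to hold *gsc_2* and *frzb*, and only *sox32*, *krt92* and *ta* were excluded from it. The first set was nearest to gated cells: of 4820 genes with a level, only 2 were at least 2-fold higher in gated cells in each library (0.0415%) and 7 were lower (0.145%). Against *foxi1* and *gata2a* cells, 17 of 4865 genes were higher (0.349%) and 28 lower (0.576%). Against *gsc_2* and *frzb* cells, 55 of 5226 were higher (1.05%) and 273 lower (5.22%). All these sets were chosen by expression, and only the first shares all exclusions with the gate, so its nearness is partly set by the rules. Small sets also vary more, so the counts are descriptions.

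The 2 genes above the *foxb1a* and *her3* cells were *cyp26a1*, at 187 CPM against 67.9 ± 7.49 CPM, and *tfap2a*, an ectoderm and neural crest factor, at 44.0 ± 8.83 CPM against 16.6 ± 3.01 CPM (SD, n = 4). *tfap2a* was under 20 CPM in the compared set, so it could not come out lower. It is also a listed marker of ventral ectoderm. The 14 such markers other than gate genes averaged a sum of 445 CPM in gated cells against 288 CPM in this set. The 7 lower genes were *chd*, *tdgf1*, *noto*, *nav1a*, *rasgef1ba*, *wnt5b* and *foxb1a* itself, which defines the compared set. *noto*, *rasgef1ba* and *wnt5b* averaged under 20 CPM in gated cells, so they could not come out higher. *chd* had 249 ± 42.6 CPM in gated cells against 769 ± 122 CPM, and *tdgf1*, the Nodal co-receptor, 135 ± 27.4 CPM against 398 ± 82.2 CPM. *sox2* was equal within its spread, at 243 ± 11.2 CPM against 238 ± 16.5 CPM, as was *sox3*, at 502 ± 107 CPM against 524 ± 74.3 CPM.

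Against ventral *foxi1* and *gata2a* cells, gated cells had more *admp* (450 CPM against 55.7 CPM), *zic2a* (62.1 CPM against 6.99 CPM) and *otx1a* (236 CPM against 43.8 CPM). They had less of the BMP-responsive genes *ved* (152 CPM against 1020 CPM), *bambia* (83.4 CPM against 556 CPM) and *dlx3b* (11.8 CPM against 134 CPM). Of the gate markers, *kazald2* had 261 CPM in gated cells against 288 CPM in these ventral cells, while the other gate markers were lower in the ventral cells. The *gsc_2* and *frzb* cells shared the *otx* genes but not the neural ones. In them *otx1a* was above the gated level (236 ± 25.5 CPM in gated cells against 357 ± 33.5 CPM), as was *tcf7l1a* (396 ± 31.8 CPM against 517 ± 99.4 CPM). *six3b* was far higher in that set, at 0.48 CPM in gated cells against 193 ± 49.8 CPM. In contrast *sox2* had 243 CPM in gated cells against 46.4 CPM in these prechordal-type cells, and *prdm14* 149 CPM against 22.25 CPM.

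**Figure D4:**
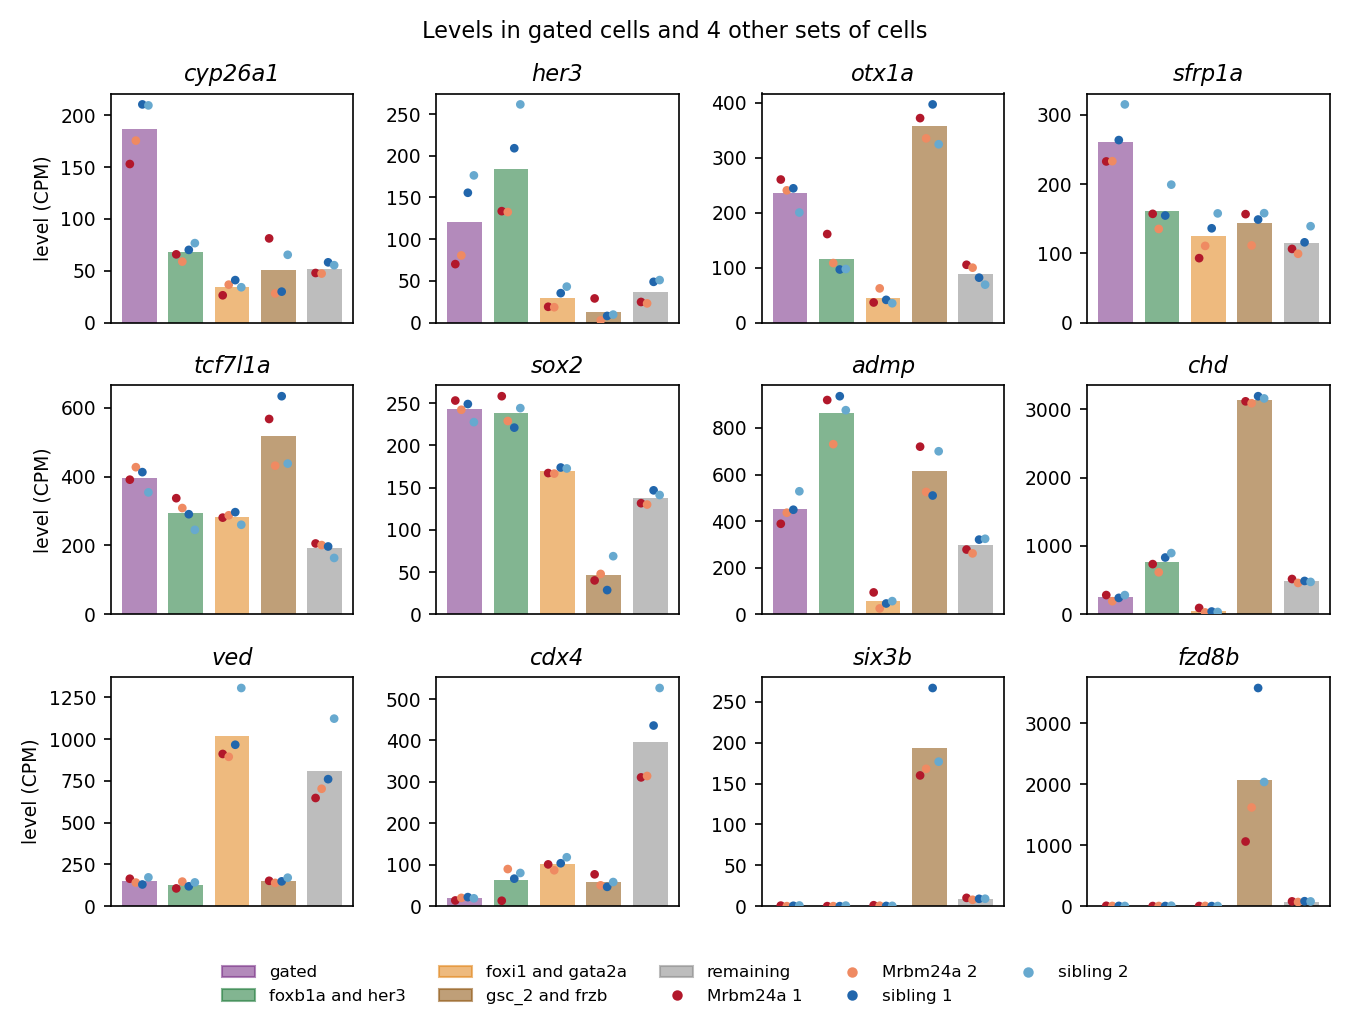
Level (CPM) of 12 genes in gated cells, in 3 compared sets and in all remaining cells, where bars are means of 4 libraries and points are libraries. Gated cells have the highest *cyp26a1* mean (187 CPM), and *six3b* is at 193 CPM in *gsc_2* and *frzb* cells but at 0.48 CPM in gated cells.

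Whether gated cells differed between genotypes was tested with edgeR's quasi-likelihood test on the UMIs of gated cells summed per library, with 2 libraries in each group and Benjamini-Hochberg adjustment over 9056 genes. This measure did not enter the rule, apart from the gate genes. At an adjusted p under 0.05, 3 genes were higher in M*rbm24a* (0.0331% of genes) and 12 were lower (0.133%), none of them a gate gene. The libraries of the 2 genotypes did not overlap for any of the 15. With 2 libraries a group, genes that are not called can also fall this way. Their share over all genes is not given here, so nothing is read from the lack of overlap. At an unadjusted p under 0.05 there were 868 genes, and the median size of a log2 fold change over all genes was 0.19. The calls depended on single libraries: without M*rbm24a* 1 there were 19 calls, without M*rbm24a* 2 there was 1, which was none of the 15, without sibling 1 there were 995 and without sibling 2 there were 178. The excess of lower genes was not kept in every fit: without sibling 1, 629 were higher and 366 lower, and with the replicate number as a block 240 were higher and 132 lower. All 15 genes kept their direction in each of these fits.

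Among the genes that fell in M*rbm24a* gated cells were *her3*, *her15.1* and *her4* copies, while none of the 11 tested genes of the list of Notch ligands, receptors and *her* genes passed (median log2 fold change 0.10). *her3*, listed with the neural genes, had 70.1 and 80.5 CPM in M*rbm24a* gated cells, against 156 and 176 CPM in sibling gated cells (log2 fold change -1.11, SE 0.12, adjusted p = 0.00956). *her15.1*, of the same Enhancer-of-split type and usually driven by Notch, had 262 and 372 CPM against 644 and 776 CPM (log2 fold change -1.14, SE 0.16, adjusted p = 0.0199). For neither gene did the libraries of the genotypes overlap, from which nothing is read, as said above. *her4.4* had 27.2 and 24.2 CPM against 57.2 and 63.3 CPM (-1.23, adjusted p = 0.0129), and *her4.3* had 103 and 113 CPM against 191 and 291 CPM (-1.12, adjusted p = 0.033). *her4.2*, named after its values were seen, had 75.3 and 68.4 CPM against 129 and 173 CPM (-1.06, adjusted p = 0.0199). The *her4* and *her15* genes lie in near-identical copies, so reads may have been divided among them and the value of a single copy is uncertain.

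*vox*, the ventral homeobox repressor, had 167 and 182 CPM in M*rbm24a* gated cells, against 319 and 419 CPM in sibling gated cells (log2 fold change -1.05, SE 0.13, adjusted p = 0.00956). In remaining cells it had 232 and 234 CPM in M*rbm24a* libraries, against 332 and 402 CPM in sibling libraries. *si:dkey-67c22.2_1* had 1.20 and 2.65 CPM against 43.3 and 29.2 CPM, and *LOC110439627* 7.52 and 0.91 CPM against 410 and 135 CPM. The other 4 that fell were *LOC100149863*, *LOC100534909*, *si:dkey-286j15.1_1* and *zgc:173716*, with log2 fold changes of -1.12 to -1.09. The files and reference tables give these entries no function.

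The strongest rise was that of *akap12b_1*, an entry for a scaffold protein of protein kinase A, with 281 and 301 CPM in M*rbm24a* gated cells, against 106 and 129 CPM in sibling gated cells (log2 fold change 1.33, SE 0.12, adjusted p = 0.00306). *ddx4*, the Vasa helicase of the germ line, had 112 and 132 CPM in M*rbm24a* gated cells, against 58.7 and 59.6 CPM in sibling gated cells (1.07, SE 0.13, adjusted p = 0.00956). Gated cells of both genotypes thus held *ddx4* transcripts. *LOC570115* was the third, with 77.5 and 51.0 CPM against 25.7 and 27.0 CPM (1.26, adjusted p = 0.0465).

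**Figure D5:**
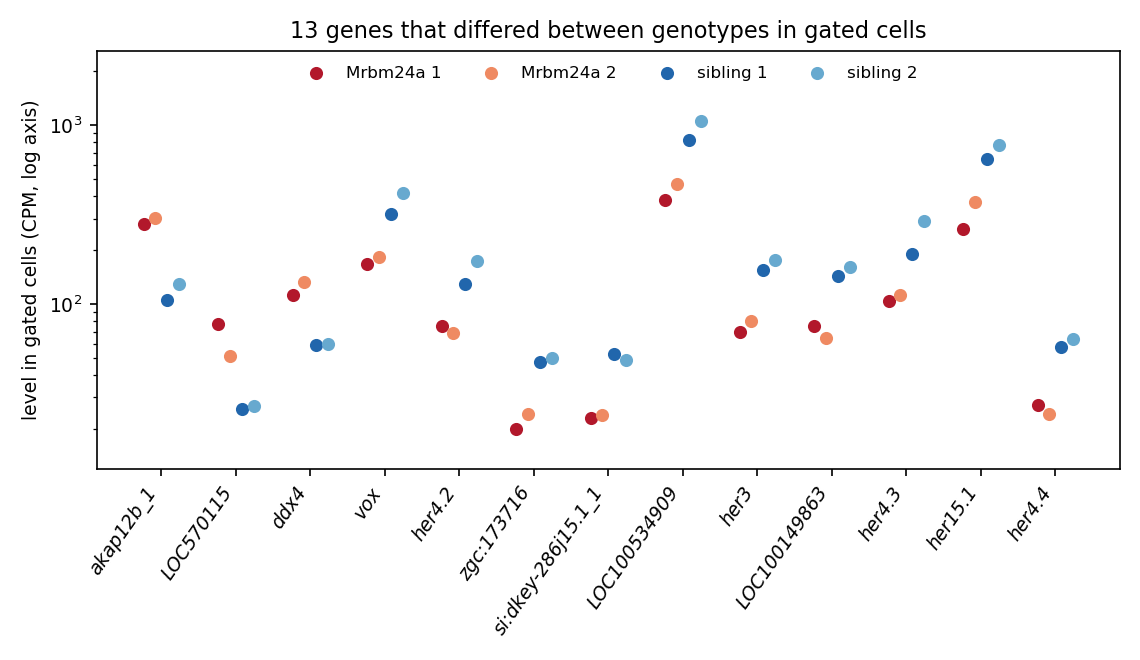
Level (CPM on a log axis) in gated cells of 13 of the 15 genes that passed the test between genotypes, with 1 point per library; *LOC110439627* and *si:dkey-67c22.2_1*, near 0 in M*rbm24a*, are not drawn. For each gene both M*rbm24a* points lie on 1 side of both sibling points, as for *her3* with 70.1 and 80.5 CPM against 156 and 176 CPM. Genes that are not called can also fall this way, so nothing is read from it.

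The test between genotypes was also read for the listed genes. Of the 181 genes of the described lists that were tested, 3 passed, *her3*, *vox* and *ddx4*, against 15 of 9056 over all genes. The lists were chosen with earlier results known, so nothing is read from this share. Regional and neural genes that did not pass are given by their values: *otx1a* averaged 250 ± 13.9 CPM in M*rbm24a* and 222 ± 31.1 CPM in sibling gated cells (log2 fold change 0.18, SE 0.14, adjusted p = 0.696), *tcf7l1a* 409 ± 25.6 CPM and 383 ± 41.6 CPM (0.11, SE 0.13, adjusted p = 0.824), and *sox2* 247 ± 7.72 CPM and 238 ± 15.1 CPM (0.07, SE 0.12, adjusted p = 0.886), with SDs over n = 2 each. *cyp26a1* averaged 164 ± 16.0 CPM in M*rbm24a* and 210 ± 0.673 CPM in sibling gated cells (-0.33, SE 0.12, adjusted p = 0.421).

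Some genes just missed the threshold. *her2* had 525 and 550 CPM in M*rbm24a* gated cells, against 822 and 882 CPM in sibling gated cells (log2 fold change -0.64, adjusted p = 0.0519), and *msx1b*, a homeobox gene of the neural plate border, 28.1 and 36.2 CPM against 62.5 and 66.4 CPM (-0.96, adjusted p = 0.0519). *foxb1a*, a forkhead gene of the neural plate, had 45.4 and 45.3 CPM against 76.1 and 113 CPM (-1.04, adjusted p = 0.0638). Of 16 mitosis genes and 18 DNA replication genes none passed, and log2 fold changes lay between -0.34 and 0.38.

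Marker sums of other cell types were read beside these results. In gated cells the 8 prechordal plate markers other than gate genes summed to 289 and 206 CPM in M*rbm24a* libraries, against 249.5 and 292 CPM in sibling libraries, with 2 of the 8 at 0 in all libraries. The 16 lateroventral mesoderm markers summed to 180 and 161 CPM against 130 and 140 CPM, with 1 at 0, and the 14 ventral ectoderm markers to 451 and 381 CPM against 446 and 504 CPM, with 1 at 0. The 10 markers of dorsal and posterior neural ectoderm summed to 282 and 277 CPM against 371 and 426 CPM, with 2 at 0, and this list holds *her3*. The 8 endoderm markers summed to 297 and 343 CPM against 344 and 425 CPM, and the 10 chordamesoderm markers to 747 and 690.2 CPM against 769 and 895 CPM, with none at 0. The sums rest on few genes. Under 5 CPM in every library were 6 of the 8 prechordal, 12 of the 16 mesoderm and 6 of the 8 endoderm markers. So were 6 of the 14 ventral, 6 of the 10 neural and 4 of the 10 chordamesoderm markers. *chd* alone gave 282, 192, 241 and 282 CPM of the prechordal sums. The genotypes did not overlap for the mesoderm, neural, endoderm and chordamesoderm sums, and they overlapped for the prechordal and ventral ones. With 2 libraries in each group nothing is read from this, and the endoderm sums were as close as 343 against 344 CPM. The share of a neighbouring cell type in the genotype differences was not tested.

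The genotype differences of gated cells were next compared with those of the remaining cells in 1 edgeR model of both sums of every library, with library as a term, so that 2 residual degrees of freedom were left. The interaction passed an adjusted p of 0.05 for 89 of 15923 genes (0.559%), with 18 genes where M*rbm24a* was relatively higher in gated cells and 71 where it was relatively lower. With another scaling (size factors by relative log expression) the split was 22 and 38. Without sibling 1 the count was 33, and without sibling 2 it was 35. Both sums of a library share its preparation, and the remaining cells are a mixture whose makeup can itself differ between genotypes.

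For the genes that differed between genotypes in gated cells, the difference in the remaining cells of the same libraries is given beside it. All 15 had the same sign in remaining cells, and 13 of them also passed the test between genotypes there. In that test 257 of 17629 genes passed. *her3* had a log2 fold change of -1.11 in gated and -1.02 in remaining cells (interaction -0.10, SE 0.11, adjusted p = 0.937), *her4.3* -1.12 and -1.07 (adjusted p = 0.959) and *akap12b_1* 1.33 and 1.06 (adjusted p = 0.214). No difference in the genotype effect was found for these genes, which does not show that it is the same. The interaction passed for 5 of the 15, which were *vox* (-1.05 in gated and -0.61 in remaining cells, interaction adjusted p = 6.98e-06), *ddx4* (1.07 and 0.49, adjusted p = 0.000492), *her15.1* (-1.14 and -0.91, adjusted p = 0.0333), *LOC100534909* (-1.11 and -0.89, adjusted p = 0.0354) and *LOC110439627* (-6.34 and -3.01, adjusted p = 0.00222). In each of them gated cells showed the larger difference.

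Among 366 genes of the described lists found in the files, the interaction passed for 19. M*rbm24a* was relatively higher in gated cells for 8 of them and relatively lower for 11. Over all genes tested 0.559% passed in either direction. The 366 count genes found and not genes tested, so these shares have unlike denominators and nothing is read from them. *sox3* had 391 and 442 CPM in M*rbm24a* gated cells against 541 and 633 CPM in sibling gated cells, while in remaining cells it had 327 and 347 CPM against 383 and 421 CPM (interaction -0.30, SE 0.06, adjusted p = 0.00132). *zic2a* followed it, with 30.7 and 53.8 CPM against 70.2 and 93.5 CPM in gated cells, and 82.3 and 76.3 CPM against 86.6 and 96.4 CPM in remaining cells (-0.71, SE 0.14, adjusted p = 0.00119). Neither gene passed the test between genotypes in gated cells alone, where both had an adjusted p of 0.202.

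*ved* and *tbx16* went the other way. *ved* had 164 and 141 CPM in M*rbm24a* gated cells against 130 and 172 CPM in sibling gated cells, while in remaining cells it had 648 and 703 CPM against 760 and 1123 CPM (interaction 0.39, SE 0.08, adjusted p = 0.00132). *tbx16* had 122 and 120 CPM against 89.3 and 99.4 CPM in gated cells, and 622 and 580 CPM against 617 and 695 CPM in remaining cells (0.43, SE 0.09, adjusted p = 0.00132). For *ved* the gated libraries of the genotypes overlap, for *tbx16* they do not. *otx1a* had log2 fold changes of 0.18 in gated and 0.48 in remaining cells (interaction adjusted p = 0.0134), and *tdgf1* of -0.48 and -0.10 (adjusted p = 0.00752). Neither gene passed the test between genotypes in either set of cells.

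The germ cell genes *nanos3*, *dnd1* and *ca15b* gave the 3 largest positive interactions. In gated cells *nanos3* had 5.53 and 5.30 CPM in M*rbm24a* libraries, against 6.30 and 5.86 CPM in sibling libraries, so that the genotypes were close, whereas the remaining cells of sibling libraries held 92.2 and 97.2 CPM. *ddx4*, another germ line gene, had log2 fold changes of 1.07 in gated and 0.49 in remaining cells, where its adjusted p was 0.133.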

How the data were processed

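Single-cell RNA-seq of shield-stage embryos was used, from 2 M*rbm24a* and 2 sibling libraries. Per the paper's methods, the authors trimmed by quality (Trimmomatic), mapped and counted with Cell Ranger, and used DecontX to take away ambient RNA and Scrublet to remove doublets. Barcodes further than 5 median absolute deviations from the median were then dropped. What was deposited is therefore an expected count per gene and cell, not a whole number, and ambient RNA can remain or have been over-corrected. The submitters' processing notes name GRCz10, and the annotation is not given in the sources used here.

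All 14455 cells were kept, no further doublet caller was run, and libraries were read from barcode prefixes. The members and lists were chosen with earlier results of these data known. Of 377 listed genes 367 matched the files by symbol or a single older symbol. Values of the gated cells were summed per library, rounded to whole numbers for tests and scaled to CPM. Genotypes were compared with the quasi-likelihood test of edgeR 4.0.16 in R 4.3.3, without covariates, after filterByExpr and TMM scaling, and limma 3.58.1 and DESeq2 1.42.0 served as alternatives. Scripts were tested on simulated data. Shares were tested by exact permutation, and cells were thinned to 3000 UMIs.

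The genes open to be named were those of the lists, up to 15 in each direction by their smallest ratio, up to 10 in each direction between genotypes with libraries that do not overlap, and 5 in each direction for the interaction. *dbx1a*, *robo3*, *prdm14*, *nav1a*, *rasgef1ba* and *her4.2* were named after their values were seen. Alternatives left out each library or changed the scaling, filter, pseudocount, tool, depth or gate.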

Additional observations from a re-analysis of the deposited data

Results flagged for a closer look

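The genotype difference of 10 genes differed between gated and remaining cells by the interaction test of edgeR, 5 in each direction. Relatively higher in M*rbm24a* gated cells were *dnd1* (interaction 4.36 on the log2 scale, SE 1.06, adjusted p = 0.0207), *nanos3* (3.86, SE 0.48, adjusted p = 9.46e-09), *ca15b* (3.04, SE 0.57, adjusted p = 0.000492), *sema3fb_1* (2.90, SE 0.76, adjusted p = 0.0441) and *LOC103911530* (2.56, SE 0.52, adjusted p = 0.00146). The first 3 are germ cell genes at 10.6 and 8.30, 92.2 and 97.2, and 26.3 and 29.3 CPM in remaining sibling cells. They had no more than 6.67 CPM in remaining M*rbm24a* cells and no more than 6.30 CPM in gated cells. *sema3fb_1* and *LOC103911530* rested on M*rbm24a* 2, at 4.34 and 10.3 CPM in its gated cells and at no more than 2.34 CPM in those of the other libraries. Without M*rbm24a* 2 the interaction of *dnd1* was 3.33 with an adjusted p of 0.899, and without sibling 1 it was 3.30 with 0.285. Likewise *sema3fb_1* lost its call without M*rbm24a* 2 (0.88, adjusted p = 0.967), sibling 1 (3.31, adjusted p = 0.114) or sibling 2 (2.57, adjusted p = 0.396), *LOC103911530* without M*rbm24a* 2 (0.24, adjusted p = 1) and *ca15b* without M*rbm24a* 1 (2.70, adjusted p = 0.0955).

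Relatively lower in M*rbm24a* gated cells were *gmds* (-10.48, SE 1.62, adjusted p = 6.37e-06), *esrp1* (-9.49, SE 2.07, adjusted p = 0.00535), *hsd17b12a* (-9.48, SE 2.19, adjusted p = 0.0107), *lye* (-6.27, SE 0.87, adjusted p = 3.38e-07) and *LOC110439627* (-3.40, SE 0.70, adjusted p = 0.00222). The sums of the first 3 round to 0 in each M*rbm24a* library, so that these fitted values depend on the prior count. A floor of 3 counts over both M*rbm24a* libraries (0.83 CPM) was set against the pooled sibling level. By that measure gated cells of M*rbm24a* were at least 14.5-fold lower in *gmds*, 6.42-fold lower in *esrp1* and 6.85-fold lower in *hsd17b12a*. These bounds hold for the pooled libraries and not for each sibling library. *hsd17b12a* had 9.82 CPM in sibling 1 but 0.50 CPM in sibling 2, under the floor, and *esrp1* had 7.03 and 3.21 CPM. *gmds* had 16.2 and 6.71 CPM in sibling gated cells. *lye* had 54.3 CPM in sibling 1 and 2.32 CPM in sibling 2, and without sibling 1 its interaction was -2.68 with an adjusted p of 0.909. Likewise *hsd17b12a* gave -6.15 without sibling 1, with an adjusted p of 1. *esrp1* lost its call without M*rbm24a* 1 (-9.52, adjusted p = 0.0595), M*rbm24a* 2 (-9.41, adjusted p = 0.261) or sibling 1 (-8.70, adjusted p = 0.213). *hsd17b12a* also did so without M*rbm24a* 1 (-9.55, adjusted p = 0.0608) or M*rbm24a* 2 (-9.35, adjusted p = 0.261). The part of EVL RNA in gated cells of sibling 1 in these differences was not tested.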

How the results depend on the processing

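Against the 15 genes called between genotypes, limma on log2(CPM + 1) called 52 (15 of the 15 among them), a fit with no filter on low counts 215, and a gate without the exclusion genes, chosen after seeing the data, 84 (11 of the 15). DESeq2 called 17, RLE scaling 14, at least 4 gate markers 11, cells of 10000 UMIs or more 14 and equal cell numbers 18, and the 15 kept their sign in each of these fits. Leaving out 1 library gave 1 to 995 calls. The replicate block gave 372 calls (240 higher, 132 lower). Cells were collected in batches that the sources used here do not assign to libraries, and same-numbered libraries hardly deviated together (r = 0.06 over 9056 genes), so nothing shows that the numbers pair them. The block cannot change the interaction fit, which holds the library. The 89 interaction calls became 60 with RLE, 70 with no filter, 71 against remaining cells of at least 3000 UMIs and 33 to 97 without 1 library. The difference in gated shares was negative in every alternative, -3.73 to -0.878 percentage points. Against remaining cells, the 12 higher and 203 lower genes became 5 and 128 with CPM + 20. With no filter on CPM 341 were lower, with the mean over cells 7 were higher (6 of the 12), and after thinning 133 were lower (122 of the 203). The pseudocount and filter set these by construction, and for the others the cause was not tested. With 2 libraries a group, a small difference between genotypes cannot be detected.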
